A study of Homo sapiens with 24 samples.

Results

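A total of 6 of 8 listed genes that encode steroid receptors or their coregulators could be followed on the arrays: NR3C1, NR3C2, NCOA1, NCOA2, NRIP1 and CTBP1. They were chosen by name, and the probe table gave them 20 of 54675 probe sets, 5 for NR3C1, 4 each for NCOA1, NCOA2 and CTBP1, 2 for NRIP1 and 1 for NR3C2. NCOA3 and NCOR1 are not analysed here. All 6 genes passed the intensity filter in both lines. NR3C1 did so in LNCaP mainly through shControl cells with vehicle.

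RNA was hybridised to Affymetrix HG-U133 Plus 2.0 arrays, 24 in all, from 2 established human prostate cancer lines. The 8 groups held 3 arrays each, with replicates A, B and C. VCaP cells received siERG or siControl, and LNCaP cells shETV1 or shControl (some labels call this control siControl). VCaP carries a fused ERG gene and LNCaP a rearranged ETV1 gene, and both encode ETS transcription factors. All groups were deprived of hormone for 2 days, starting 24 h after RNA interference, and then received 10 nM DHT (dihydrotestosterone, a potent androgen) or EtOH (ethanol, the vehicle) for 16 h. The groups were siERG DHT, siControl DHT, siERG EtOH and siControl EtOH in VCaP, and shETV1 DHT, shControl DHT, shETV1 EtOH and shControl EtOH in LNCaP. Each line is a single culture model, and whole-culture RNA cannot tell fewer expressing cells from less RNA per cell.

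Steroid receptors are transcription factors that a hormone switches on. Bound to DNA, they recruit coactivators, such as the NCOA proteins, which bring in histone acetyltransferases, and corepressors, which bring in histone deacetylases. The glucocorticoid receptor, encoded by NR3C1, binds DNA letters very similar to those bound by the androgen receptor, and in prostate cancer it is known to take over part of that receptor's target genes when androgen signalling is blocked. CTBP1 is a corepressor that many DNA-binding proteins recruit through a short peptide motif.

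The labels were first checked on the targeted genes. ERG fell by 0.82 with siERG in EtOH and by 1.09 in DHT, and ETV1 fell by 0.61 with shETV1 in EtOH and by 0.62 in DHT, all on the log2 scale. FKBP5, an androgen- and glucocorticoid-induced co-chaperone of steroid receptors, rose with DHT by 1.90 in siControl and 3.52 in shControl cells. All 8 luminal prostate markers lay above the filter in both lines. Of 12 markers of fibroblasts, endothelium or blood cells, 7 lay above it and 5 below it in each line, with 5 above it in both lines. The summed intensity of these 12 was 779 to 837 in siERG DHT and 962 to 1157 in siControl DHT cells, against 1008 to 1140 in siERG EtOH and 1160 to 1253 in siControl EtOH cells. It was 603 to 667 in shETV1 DHT and 628 to 709 in shControl DHT cells, against 888 to 910 in shETV1 EtOH and 836 to 878 in shControl EtOH cells. Their part in the DHT results was not tested.

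Values are array intensities as the authors deposited them, in arbitrary units. Changes are log2 differences of intensity plus 16 with limma's standard error, on the gene's brightest probe set, with n = 3 arrays per group. A gene is said to rise, fall or change where limma's adjusted p (Benjamini-Hochberg over all genes tested) was below 0.05. The added 16 makes the changes of dim probe sets smaller than their intensity ratios.

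CTBP1 had the largest change with DHT of the 6 genes on the log2 scale of intensity plus 16, and it was seen in LNCaP. As a plain ratio of mean intensities, the dim NR3C1 was 3.38-fold lower with DHT in shETV1 cells, beside 2.68-fold for CTBP1. Probe set 212863_x_at read 986.4, 922.8 and 914.2 in shControl DHT cells, against 2947, 3059 and 2446 in shControl EtOH cells. It read 1244, 1197 and 1217 in shETV1 DHT cells, against 3325, 3184 and 3289 in shETV1 EtOH cells. The DHT and EtOH arrays were far apart in both settings. CTBP1 therefore fell 2.95-fold in shControl cells (log2 change -1.56 ± 0.073 SE, limma adjusted p = 2.92e-08) and 2.66-fold in shETV1 cells (-1.41 ± 0.073 SE, limma adjusted p = 7.09e-08). In VCaP the same probe set stayed between 2543 and 3166 on the 12 arrays. DHT minus EtOH there was -0.11 in siControl cells (95% interval -0.259 to 0.0444) and -0.03 in siERG cells (-0.184 to 0.12), and neither passed the test.

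The 4 CTBP1 probe sets did not move together. In LNCaP, 3 of them were lower with DHT, while the dim probe set 1557714_at was higher. This probe set read 117.9, 97.31 and 131.6 in shControl DHT cells, against 52.92, 60.12 and 71.82 in shControl EtOH cells. Over the 4 probe sets the change with DHT ranged from -1.78 to 0.76 in shControl cells and from -1.51 to 0.99 in shETV1 cells. When probe sets ending in _x_at and _s_at, which can bind several transcripts, were left out, only 1557714_at remained for CTBP1 and the sign turned (0.76 in shControl and 0.99 in shETV1 cells). The files do not say which transcript this probe set reads.

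A pair of noncoding RNAs beside CTBP1 were then read, chosen after the CTBP1 values were seen. CTBP1 lies on chr4:1211445-1250355 (GRCh38.p14), CTBP1-AS overlaps its 3' end at chr4:1210120-1218591, and CTBP1-DT, on the other strand, overlaps its 5' end at chr4:1249440-1253007. CTBP1-AS is known as an androgen-responsive antisense RNA of prostate cancer cells. It read 868.5, 860.2 and 844 in shControl DHT cells, against 136.6, 146.6 and 160.5 in shControl EtOH cells. It read 807.1, 780.6 and 860.3 in shETV1 DHT cells, against 79.38, 74.72 and 75.49 in shETV1 EtOH cells. CTBP1-AS thus moved opposite to CTBP1, rising 5.34-fold in shControl cells (log2 change 2.42 ± 0.057 SE, limma adjusted p = 1.58e-10) and 8.99-fold in shETV1 cells (3.17 ± 0.057 SE, limma adjusted p = 2.74e-11).

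The knockdown also touched CTBP1-AS. In EtOH it was 1.77-fold lower with shETV1 than with shControl (log2 change -0.82 ± 0.057 SE, limma adjusted p = 1.76e-05), whereas in DHT the change was -0.07 (limma adjusted p = 0.526). The DHT response of shETV1 cells exceeded that of shControl cells by 0.75 ± 0.080 SE (limma adjusted p = 0.00809), an interaction that 0.101% of all genes tested in LNCaP passed. In VCaP, where CTBP1 itself passed no test, CTBP1-AS rose with DHT by 0.45 in siControl cells (limma adjusted p = 0.00474) and by 0.41 in siERG cells (limma adjusted p = 0.00818). Its rise in control cells was 1.97 ± 0.12 SE larger in LNCaP than in VCaP (limma adjusted p = 2.04e-10). Whether the antisense RNA and CTBP1 act on each other was not tested.

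**Figure D1:**
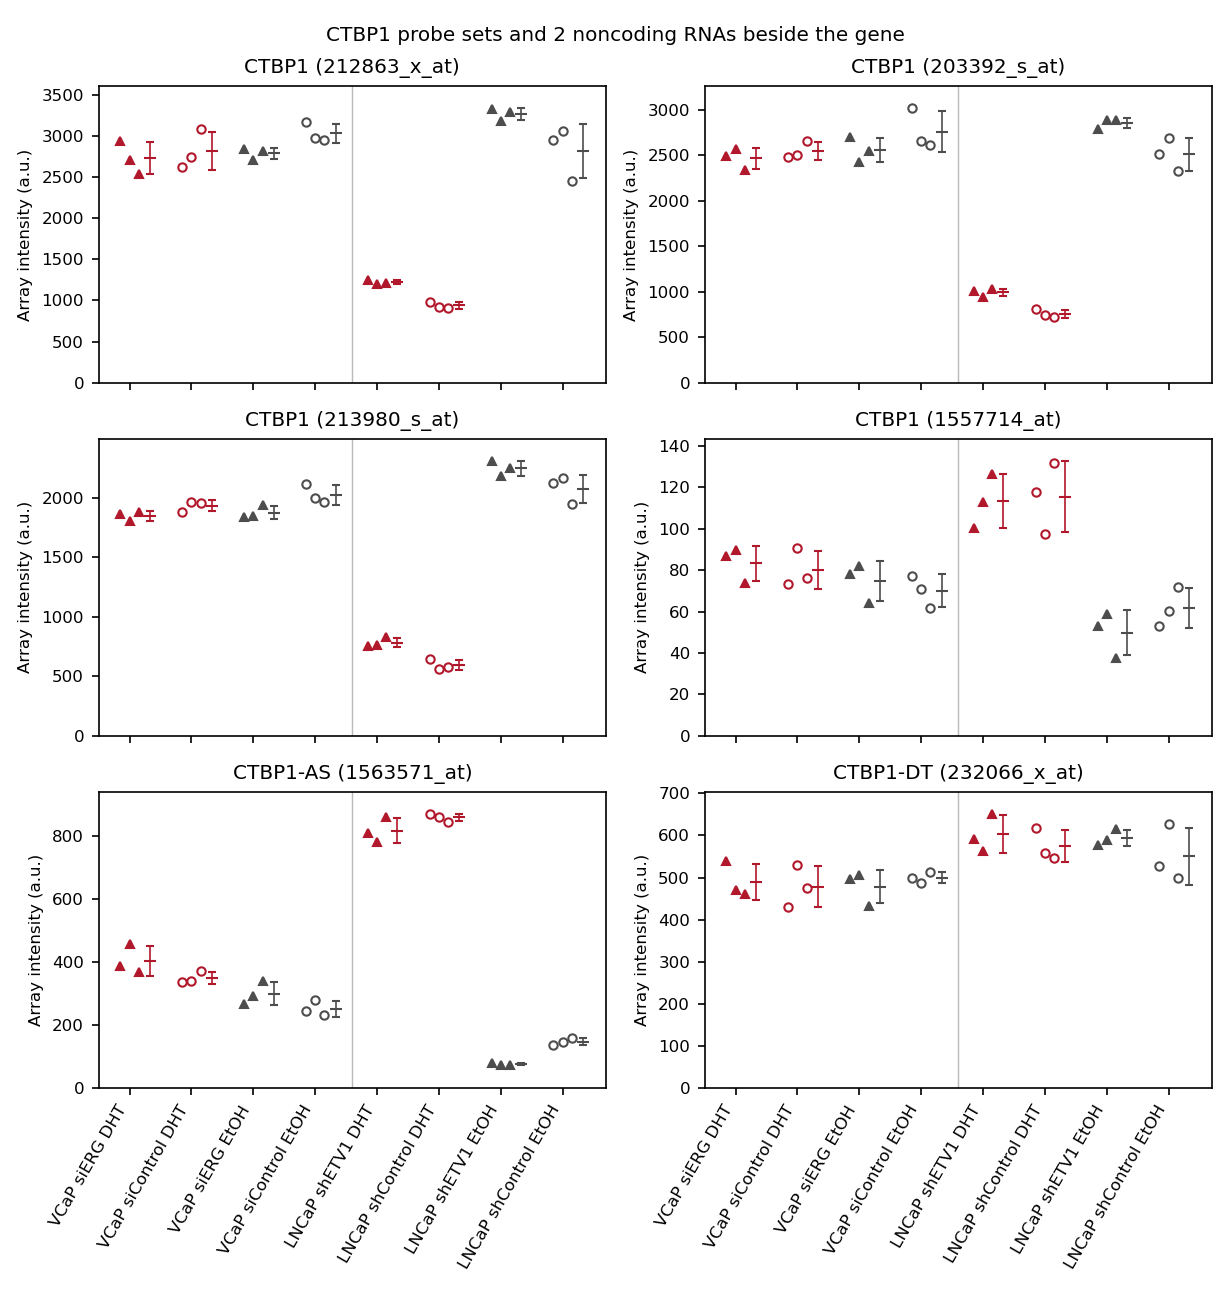
Array intensity (arbitrary units, axes from 0) of the 4 CTBP1 probe sets, CTBP1-AS and the brighter CTBP1-DT probe set in the 8 groups; triangles are knockdown arrays, open circles control arrays, red DHT, grey EtOH, and the bar beside each group is the mean ± SD of 3 arrays. In LNCaP, 3 CTBP1 probe sets drop with DHT while 1557714_at and CTBP1-AS climb, and in VCaP the 3 bright CTBP1 probe sets stay level.

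CTBP1-DT did not pass the test with DHT in either line. Its brighter probe set read 617.1, 558.8 and 545.8 in shControl DHT cells, against 527, 626.9 and 498.2 in shControl EtOH cells, and these ranges overlap. RefSeq gives CTBP1 3 starts, and the one nearest to CTBP1-DT lies 310 bases from the CTBP1-DT start on the other strand. The upstream windows of the 2 starts share 191 bases, so sequence between a gene that fell with DHT in LNCaP and a neighbour with no call is shown. The 250 bases before that CTBP1 start, at chr4:1249131-1249380 on the minus strand (RefSeq, GRCh38.p14), read as follows, with AGGAAG, an ETS-type letter run, or its reverse complement in capitals.
CTBP1: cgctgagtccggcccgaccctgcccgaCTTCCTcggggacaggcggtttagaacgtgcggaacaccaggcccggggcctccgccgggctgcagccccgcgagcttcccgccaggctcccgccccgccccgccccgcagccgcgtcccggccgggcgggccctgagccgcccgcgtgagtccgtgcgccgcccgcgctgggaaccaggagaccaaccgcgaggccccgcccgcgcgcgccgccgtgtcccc
The window holds AGGAAG 1 time and neither CCGGAA, the other ETS-type run searched, nor AGAACA, an arm of the steroid receptor element. Both strands were searched, and of 35116 such RefSeq windows AGGAAG is in 28.7%, CCGGAA in 14.5% and AGAACA in 12.4%.

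The other members were read against all genes. With DHT in LNCaP, 5 of the 6 genes changed in shControl cells, where 40.9% of all genes tested changed, and the same number in shETV1 cells, where 37.9% changed. All 5 were lower in both settings, whereas 22.3% of all genes fell in shControl cells and 19% in shETV1 cells. They were CTBP1, NR3C1, NCOA2, NR3C2 and NCOA1. The count rests on the probe sets used. Without _x_at and _s_at probe sets CTBP1 was higher with DHT (0.76 in shControl and 0.99 in shETV1 cells), and NR3C1 was not tested in LNCaP. NR3C1 had entered the LNCaP test through its EtOH arrays, so its fall was favoured by the filter. With no filter NR3C1 still fell in shControl (limma adjusted p = 9.47e-06) and shETV1 cells (1.86e-05). In VCaP, 2 of the 6 changed in siControl cells (45.2% of all genes) and 2 in siERG cells (45.4%). By limma 0 members passed the interaction of knockdown and DHT, with 0.35% of all genes passing in VCaP and 0.101% in LNCaP. At an unadjusted p under 0.05 the count was 2 in VCaP (NR3C2 and NRIP1) and 0 in LNCaP. The shares above are for adjusted p, and the share of all genes at the unadjusted threshold is not given, so these counts have no background. The interaction was tested on the brightest probe set only. Over all probe sets in LNCaP it ranged from -0.05 to 0.74 for NR3C1 and from 0.07 to 0.86 for NCOA2.

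**Figure D2:**
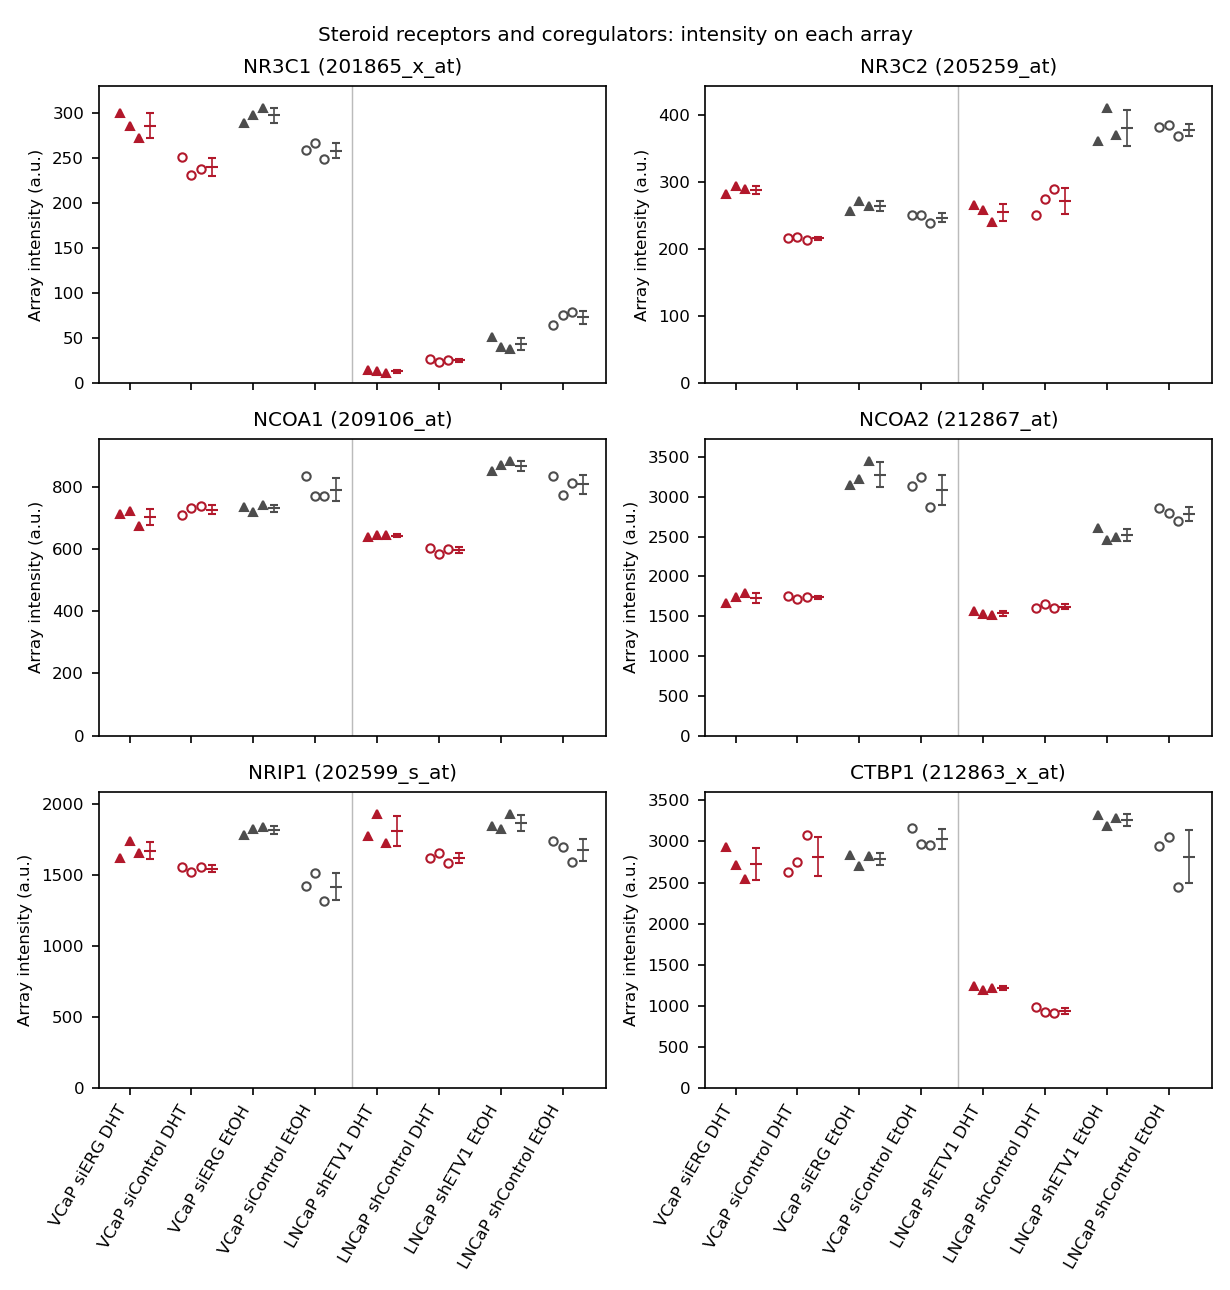
Array intensity (arbitrary units, axes from 0) of the probe set used for each of the 6 genes in the 8 groups; triangles are knockdown arrays, open circles control arrays, red DHT, grey EtOH, and the bar beside each group is the mean ± SD of 3 arrays. NCOA2 is lower with DHT in both lines, CTBP1, NR3C1, NR3C2 and NCOA1 most clearly in LNCaP, and NRIP1 is higher in siERG EtOH (1781 to 1839) than in siControl EtOH (1319 to 1514).

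Among the receptors, NR3C1 (chr5:143277931-143435512, GRCh38.p14) was dim in LNCaP and lower still with DHT. It read 26.84, 22.93 and 25.1 in shControl DHT cells, against 64.43, 75.26 and 78.87 in shControl EtOH cells. It read 14.09, 12.99 and 11.12 in shETV1 DHT cells, against 51.19, 40.02 and 37.92 in shETV1 EtOH cells. All 6 DHT arrays lay below the array medians of 42.7 to 44.8, the limit of the intensity filter, while 3 shControl EtOH arrays and 1 shETV1 EtOH array lay above. NR3C1 fell by 1.11 ± 0.089 SE in shControl cells (limma adjusted p = 2.16e-06) and by 1.03 ± 0.089 SE in shETV1 cells (limma adjusted p = 4.44e-06). All 5 NR3C1 probe sets were lower with DHT, with changes from -1.34 to -0.08 in shControl cells and from -1.03 to -0.13 in shETV1 cells.

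With the filter at the 60th percentile of the array, or with the mean of all its probe sets, NR3C1 was not tested in LNCaP. In VCaP it read 250.6, 230.7 and 237.4 in siControl DHT cells, against 258.9, 266.7 and 249.2 in siControl EtOH cells. The change of -0.10 did not pass (95% interval -0.212 to 0.00832, limma adjusted p = 0.122). Of the 5 NR3C1 probe sets, 4 were lower and 1 was higher with DHT in these cells, over a range from -0.23 to 0.26. The DHT response of control cells was 1.01 ± 0.10 SE log2 units lower in LNCaP than in VCaP (difference -1.01, limma adjusted p = 2.68e-07). The filter favoured this difference too, since NR3C1 entered the LNCaP test through its shControl EtOH arrays. With no filter the difference still passed (limma adjusted p = 9.92e-07).

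NR3C2 (chr4:148078764-148445322), which encodes the mineralocorticoid receptor, a receptor for aldosterone and cortisol, was read by 1 probe set. It read 251.1, 274.1 and 290.2 in shControl DHT cells, against 382.5, 384.6 and 368.2 in shControl EtOH cells, and it read 265.6, 257.8 and 240.2 in shETV1 DHT cells, against 361, 410.7 and 370.2 in shETV1 EtOH cells. The LNCaP groups did not overlap, and NR3C2 fell by 0.46 in shControl and by 0.55 in shETV1 cells (limma adjusted p = 0.000173 and 4.70e-05). In VCaP the changes were small. NR3C2 read 215.7, 218.6 and 213.4 in siControl DHT cells, against 250.8, 250.4 and 238.6 in siControl EtOH cells, a fall of 0.18 (limma adjusted p = 0.00379). It read 282.6, 294.6 and 288.9 in siERG DHT cells, against 256.2, 272.3 and 264.1 in siERG EtOH cells, a rise of 0.12 (limma adjusted p = 0.0290).

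That rise was lost with no filter (limma adjusted p = 0.0715), a trended and robust variance (0.0697), only the groups compared (0.107), a fit of all 24 arrays (0.0655) and the GAPDH covariate (0.214). It was also lost without replicate B of siERG DHT (limma adjusted p = 0.0906) and without replicate A (0.108) or C (0.0681) of siERG EtOH. The difference between the 2 DHT responses was 0.30 ± 0.056 SE and missed the threshold (limma adjusted p = 0.0680). It passed with a stricter intensity filter (0.0494), quantile normalization (0.0413) and array weights (0.0241), and missed under the other settings, with limma adjusted p up to 0.777 (GAPDH covariate) and 0.183 with no filter.

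Among the coactivators, NCOA2, a p160 protein also known as a transcriptional partner of the androgen receptor, was lower with DHT in every setting. It read 1754, 1717 and 1742 in siControl DHT cells, against 3139, 3250 and 2875 in siControl EtOH cells, and 1600, 1652 and 1604 in shControl DHT cells, against 2864, 2792 and 2697 in shControl EtOH cells. DHT and EtOH arrays did not overlap in either line. NCOA2 fell 1.77-fold in siControl (log2 change -0.82 ± 0.055 SE), 1.88-fold in siERG (-0.91 ± 0.055 SE), 1.71-fold in shControl (-0.78 ± 0.040 SE) and 1.63-fold in shETV1 cells (-0.71 ± 0.040 SE), with limma adjusted p of 8.50e-07, 4.06e-07, 6.25e-08 and 1.45e-07 in that order. All 4 NCOA2 probe sets were lower with DHT in each of these 4 comparisons, but not evenly. In shETV1 cells the changes of 205731_s_at and 215605_at were -0.19 each, against -1.05 and -0.60 in shControl cells. The shETV1 DHT and EtOH arrays of 205731_s_at overlapped. The response of LNCaP minus that of VCaP control cells was 0.05, with a 95% interval from -0.0926 to 0.184.

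NCOA1 (chr2:24491254-24770702), another p160 coactivator, changed less. It read 602.2, 584.4 and 599.6 in shControl DHT cells, against 834.5, 774.6 and 812.3 in shControl EtOH cells, with no overlap. It fell by 0.43 ± 0.038 SE in shControl cells (limma adjusted p = 5.56e-06) and by 0.42 ± 0.038 SE in shETV1 cells (limma adjusted p = 6.84e-06), and all 4 of its probe sets were lower in both. In siControl cells of VCaP it read 709.3, 731.3 and 736.5 with DHT, against 833, 769.1 and 769.9 with EtOH. That change of -0.12 narrowly missed the threshold (limma adjusted p = 0.0542), and it passed without siERG DHT replicate C (0.0321). Over the other settings its limma adjusted p ran from 0.0174 to 0.175. The LNCaP response was lower than the VCaP response by 0.31 on the log2 scale (difference -0.31 ± 0.056 SE, limma adjusted p = 0.000259).

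NRIP1 (chr21:14961235-15065936), a corepressor that binds hormone-occupied nuclear receptors, passed the test with DHT in neither line. It read 1617, 1656 and 1580 in shControl DHT cells, against 1734, 1698 and 1590 in shControl EtOH cells, and 1557, 1519 and 1556 in siControl DHT cells, against 1418, 1514 and 1319 in siControl EtOH cells. The LNCaP groups overlap and the VCaP groups do not. The changes were -0.05 (95% interval -0.163 to 0.0673) in shControl and 0.12 (0.00903 to 0.241, limma adjusted p = 0.0757) in siControl cells. Without siControl EtOH replicate B the VCaP rise passed (limma adjusted p = 0.0221), and over the other settings its limma adjusted p ran from 0.032 to 0.242.

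**Figure D3:**
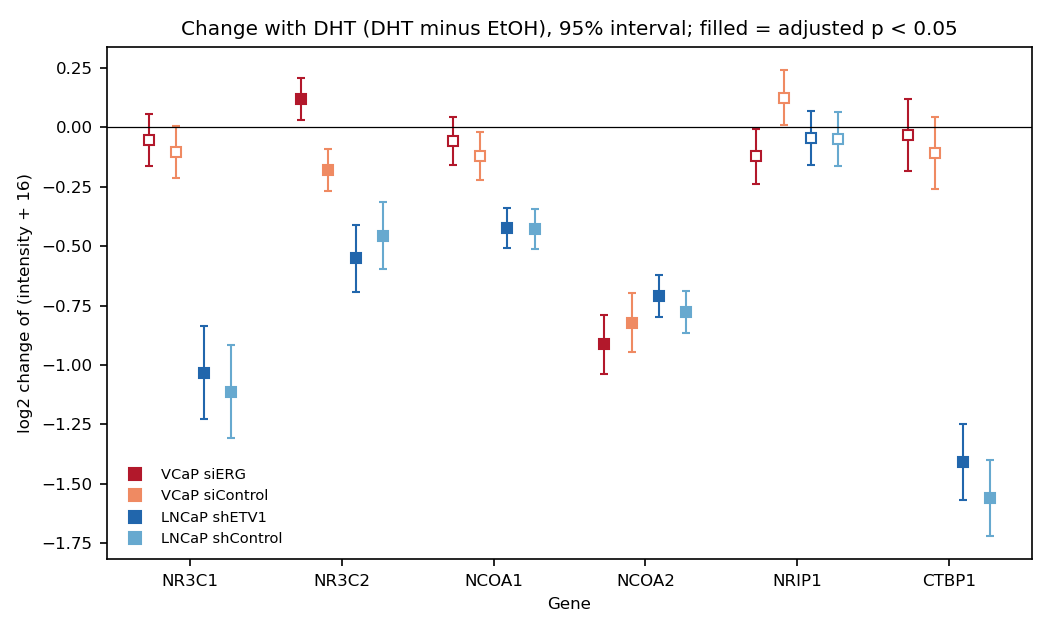
Change with DHT (DHT minus EtOH, log2 of intensity plus 16) of the 6 genes in the 4 settings; squares are estimates, bars 95% intervals from limma, and filled squares passed an adjusted p of 0.05. CTBP1 reaches -1.56 in LNCaP shControl cells and -0.11 in VCaP siControl cells, while the 4 NCOA2 estimates lie between -0.91 and -0.71.

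Set directly against each other, the DHT responses of control cells differed between the lines for 4 of the 6 genes, where 31.9% of all genes differed. All 4 differences, LNCaP minus VCaP, were negative: CTBP1 -1.45, NR3C1 -1.01, NCOA1 -0.31 and NR3C2 -0.28. NR3C1 entered the LNCaP test through its shControl EtOH arrays, so the filter favoured its negative difference and this count. NRIP1 (-0.17, limma adjusted p = 0.0764) did not pass, but it did without VCaP siControl EtOH replicate B (0.0247) and without LNCaP shControl EtOH replicate C (0.0405). Over the other settings its limma adjusted p ran from 0.00699 to 0.292. Levels were not tested between the lines, whose array medians did not overlap (42.7 to 44.8 for LNCaP arrays, 47.6 to 53.2 for VCaP arrays).

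With siERG in EtOH, 2 of 6 genes changed (11.3% of all genes). NRIP1 read 1781, 1822 and 1839 in siERG EtOH cells, against 1418, 1514 and 1319 in siControl EtOH cells, with a wide gap between the groups. It rose 1.28-fold (log2 change 0.36 ± 0.052 SE, limma adjusted p = 0.00187), and both of its probe sets were higher. In DHT the NRIP1 change was 0.11 and did not pass (limma adjusted p = 0.246). The difference between the 2 knockdown effects was -0.25 ± 0.074 SE and did not pass either (limma adjusted p = 0.263).

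NR3C1 read 288.8, 298.1 and 305.2 in siERG EtOH cells, against 258.9, 266.7 and 249.2 in siControl EtOH cells, and 300.1, 285.8 and 272.2 in siERG DHT cells, against 250.6, 230.7 and 237.4 in siControl DHT cells. The groups did not overlap, and all 5 probe sets were higher with siERG in both media. The rises were small, 0.19 in EtOH (limma adjusted p = 0.0338) and 0.24 in DHT (limma adjusted p = 0.0132). The call in EtOH was lost on leaving out any 1 array of siERG EtOH or siControl EtOH, or siControl DHT replicate C (limma adjusted p 0.0507 to 0.112). The call in DHT was lost without siControl DHT replicate B (0.0528) or C (0.0514).

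With siERG in DHT, 2 of 6 genes changed (9.05% of all genes), NR3C1 as above and NR3C2. NR3C2 read 282.6, 294.6 and 288.9 in siERG DHT cells, against 215.7, 218.6 and 213.4 in siControl DHT cells, and rose by 0.39 ± 0.040 SE (limma adjusted p = 0.000157). In EtOH it was 0.09 higher and did not pass (limma adjusted p = 0.168). The GAPDH 3'/5' ratio, which grows as RNA degrades, moved in opposite directions with siERG in the 2 media: it was 1.09 in siERG EtOH, against 1.05 in siControl EtOH cells, and 1.03 in siERG DHT, against 1.07 in siControl DHT cells. The ACTB 3'/5' ratio was 3.05 ± 0.45 (SD, n = 3) in siERG EtOH, against 3.31 ± 0.32 in siControl EtOH cells, and 2.84 ± 0.31 in siERG DHT, against 3.50 ± 0.057 in siControl DHT cells. With the GAPDH ratio as a covariate, the siERG changes were 0.17 in EtOH and 0.27 in DHT for NR3C1 and 0.31 in EtOH for NRIP1, close to those above, but their calls were lost (limma adjusted p = 0.36, 0.146 and 0.0969). The summed markers of other cells were lower with siERG in both media, with no overlap of the ranges given above. Among them LYZ fell by 1.22 in EtOH and 1.03 in DHT, PECAM1 fell by 0.45 in EtOH, and LUM rose by 0.46 in EtOH and 0.23 in DHT. Their part in the siERG results was not tested.

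With shETV1 in EtOH, 1 of 6 genes changed (4.2% of all genes), and in DHT 2 of 6 (5.18%). NR3C1 was the one in EtOH, reading 51.19, 40.02 and 37.92 in shETV1 cells, against 64.43, 75.26 and 78.87 in shControl cells. It was lower by 0.59 on the log2 scale (change -0.59 ± 0.089 SE, limma adjusted p = 0.00379), all 5 probe sets were lower, and the groups did not overlap. NR3C1 entered the test through the 3 shControl EtOH arrays it is compared with here, which favoured this call and the count that rests on it. With no filter the call stayed (limma adjusted p = 0.0124). In DHT the change was -0.51 (limma adjusted p = 0.00895), but all 6 of those arrays lay below the array median. There 4 probe sets were lower and 1 was higher, over a range from -0.51 to 0.02. A trended and robust variance ended the call in DHT (limma adjusted p = 0.0552).

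CTBP1 read 1244, 1197 and 1217 in shETV1 DHT cells, against 986.4, 922.8 and 914.2 in shControl DHT cells. The groups did not overlap, and CTBP1 rose 1.29-fold (log2 change 0.37 ± 0.073 SE, limma adjusted p = 0.0177). That call was lost without shETV1 DHT replicate A (0.0684) or C (0.0565) and without shControl DHT replicate B (0.0677) or C (0.0571). In EtOH the CTBP1 change was 0.22 and did not pass (limma adjusted p = 0.137).

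A 5' flank of NR3C1 is shown to set its letters beside those of CTBP1. RefSeq gives NR3C1 7 starts, and the windows before 3 of them hold AGGAAG, before 2 CCGGAA and before 0 AGAACA, while 4 hold none of these. The window printed was picked as the outer of the 2 that hold both AGGAAG, found in 28.7% of all windows, and CCGGAA, found in 14.5%. The 250 bases before the start at position 143405355, at chr5:143405356-143405605 on the minus strand, hold 1 AGGAAG and 1 CCGGAA, in capitals on either strand.
NR3C1: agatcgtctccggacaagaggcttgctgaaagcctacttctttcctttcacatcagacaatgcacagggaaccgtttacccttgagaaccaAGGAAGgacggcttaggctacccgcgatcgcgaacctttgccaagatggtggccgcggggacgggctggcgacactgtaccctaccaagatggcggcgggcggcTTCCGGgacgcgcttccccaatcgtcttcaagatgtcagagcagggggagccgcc
Over the 20 windows of NR3C1, NR3C2, NCOA1, NRIP1 and CTBP1, 7 hold AGGAAG, 3 CCGGAA and 0 AGAACA. A match is a description of letters, binding was not measured, and any part of ERG or ETV1 there was not tested.

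**Figure D4:**
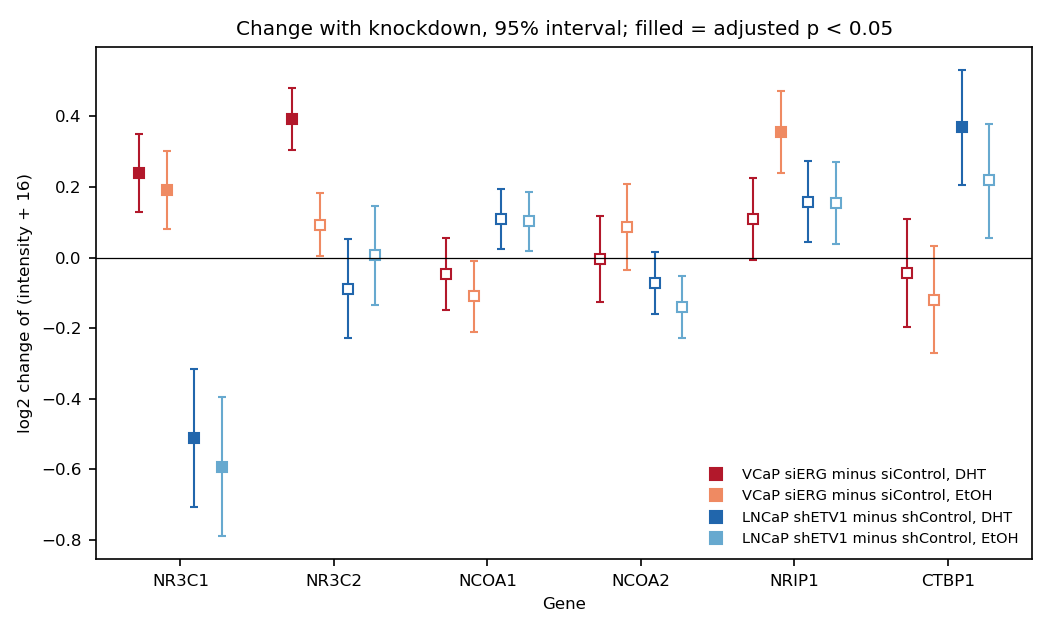
Change with knockdown (siERG minus siControl in VCaP, shETV1 minus shControl in LNCaP, log2 of intensity plus 16) of the 6 genes with DHT and with EtOH; squares are estimates, bars 95% intervals from limma, and filled squares passed an adjusted p of 0.05. NR3C1 lies above 0 in VCaP (0.19 and 0.24) and below 0 in LNCaP (-0.59 and -0.51).

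The knockdown effects were also set against each other, shETV1 in LNCaP minus siERG in VCaP. In EtOH 4 of 6 genes differed (9.57% of all genes), NR3C1 by -0.79 (limma adjusted p = 6.43e-05), NCOA2 by -0.23, CTBP1 by 0.34 and NCOA1 by 0.21. NR3C1 entered the LNCaP test through the shControl EtOH arrays subtracted here, which favoured its call and this count. With no filter its call stayed (limma adjusted p = 0.000205). In DHT 3 of 6 differed (7.53%), NR3C1 by -0.75 (limma adjusted p = 9.69e-05), NR3C2 by -0.48 (limma adjusted p = 0.000282) and CTBP1 by 0.41 (limma adjusted p = 0.0149). Every LNCaP DHT array of NR3C1 lay below the array median. In EtOH the calls of NCOA1, NCOA2 and CTBP1 had limma adjusted p of 0.0203, 0.0362 and 0.0418. With no filter all of these were lost (0.0535, 0.0795 and 0.0807). The call of NCOA1 was lost without siERG EtOH replicate B (0.0545), siControl EtOH replicate A (0.0624) or shETV1 EtOH replicate C (0.0519). The call of NCOA2 was lost in 7 of the 24 omissions of 1 array, those of siERG EtOH replicates B and C, siControl EtOH replicate C, shETV1 EtOH replicates B and C, and shControl EtOH replicates A and B (limma adjusted p 0.0536 to 0.101). The call of CTBP1 was lost in 12 omissions, those of each siERG EtOH, siControl EtOH and shETV1 EtOH array, shControl EtOH replicate C, and shETV1 DHT replicates A and C (0.0507 to 0.101). NRIP1 passed in EtOH without VCaP siControl EtOH replicate B (0.0375), and over the other settings its limma adjusted p ran from 0.0312 to 0.744. The 2 lines differ in the targeted gene, in the method of RNA interference and in origin, which cannot be told apart.

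Lists of related genes place the 6 in their pathway. Of 24 other coactivators tested, 5 rose and 4 fell with DHT in shControl cells, and 4 rose and 4 fell in siControl cells. Over all genes tested, 18.6% rose and 22.3% fell in shControl cells, and 19.6% rose and 25.5% fell in siControl cells, which are shares near or above those of the list. NCOA7, a coactivator of nuclear receptors, fell in both lines. It read 523.3, 468.1 and 491.3 in shControl DHT cells, against 1523, 1526 and 1423 in shControl EtOH cells (log2 change -1.56), and 687.5, 619.8 and 695.1 in siControl DHT cells, against 1165, 1253 and 1201 in siControl EtOH cells (-0.84). SMARCA2, an ATPase of the SWI/SNF remodelling complex, fell with DHT by 0.83 in siControl cells.

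With siERG, 4 of the 24 fell in EtOH and 4 in DHT, where 5.92% and 5.24% of all genes fell. KAT2B, a histone acetyltransferase, fell by 0.59 in EtOH and 0.63 in DHT, and SMARCA2 fell by 0.50 and 0.45. The list's median change was -0.04 in both media, beside 0.01 and 0.02 over all genes. With shETV1 in DHT, 1 of the 24 passed the test, SMARCA2, which fell by 0.32.

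Of 21 other corepressors tested, 7 rose and 7 fell with DHT in siControl cells, and 6 rose and 2 fell in shControl cells, beside all-gene shares of 19.6% risen and 25.5% fallen in siControl and 18.6% and 22.3% in shControl cells. TBL1X, a subunit of the NCOR complexes, fell by 0.83 in siControl cells and rose by 0.40 in shControl cells. SIN3A, the scaffold of a deacetylase complex, rose by 0.37 in siControl cells. HDAC1, a histone deacetylase, fell with siERG by 0.34 in EtOH and by 0.38 in DHT.

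Of other nuclear receptors tested, 2 rose and 9 fell of 23 with DHT in siControl cells, and 5 rose and 5 fell of 22 in shControl cells. The shControl counts lie near the all-gene shares (18.6% risen, 22.3% fallen), and those in siControl cells stand beside 19.6% and 25.5%. NR4A2, an orphan receptor of the NR4A family, fell by 1.93 in siControl and by 1.02 in shControl cells. RORB, an orphan receptor of the ROR family, fell by 1.90 in siControl cells and was 0.52 higher with siERG in EtOH (limma adjusted p = 0.000683). THRB, a thyroid hormone receptor, rose by 0.84 in shControl cells.

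Most tested members of a list of corticosteroid target genes, several of which the androgen receptor also drives, rose with DHT in both lines. In siControl cells 12 of 18 rose and 2 fell, with a median change of 0.55, beside -0.03 over all genes, of which 19.6% rose and 25.5% fell. In shControl cells 10 rose and 3 fell, with a median of 0.36, beside -0.01 over all genes, of which 18.6% rose and 22.3% fell. FKBP5 led in both, TIPARP rose by 1.60 in siControl cells, and ERRFI1, a feedback inhibitor of the EGF receptor, rose by 2.12 in shControl cells. With siERG, 3 of 18 rose and 1 fell in EtOH (5.37% and 5.92% of all genes), and 1 rose and 2 fell in DHT (3.81% and 5.24%). TSC22D3, a glucocorticoid-induced leucine zipper protein, rose with siERG by 0.48 in EtOH and 0.65 in DHT, whereas DUSP1, a MAP kinase phosphatase, fell by 0.23 in EtOH, and SGK1, a kinase, and ERRFI1 fell by 0.36 and 0.34 in DHT.

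Genes with the most similar pattern were named by the Pearson correlation of their 8 group means, each less the mean of its line, among 12292 genes. CTBP1 was most like IGIP (r = 0.996) and TULP4 (0.996), NCOA2 most like PPP2R5A (0.997) and BCLAF1 (0.997), and NCOA1 most like DTX2P1-UPK3BP1-PMS2P11 (0.992) and EPC1 (0.991). NR3C1 was most like STX17-DT (0.982) and IQGAP1 (0.979), NR3C2 most like ADNP (0.983) and ZNF564 (0.976), and NRIP1 most like ZNF212 (0.978) and SLC24A3-AS1 (0.965). Among the members, CTBP1 and NCOA1 were most alike (r = 0.978) and NR3C1 and NRIP1 least (0.0278). The group means share their arrays, so these are descriptions.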

How the data were processed

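Gene expression was measured on 24 arrays in 8 groups of 3. The authors deposited 1 linear intensity per probe set and array, used unchanged. How they were background-corrected, summarised and scaled the sources used here do not give. The design text names 3 biological replicates per group. No pairing by the letters A, B and C was seen, as same-letter deviations correlated at -0.125 to 0.108 in VCaP and -0.219 to 0.124 in LNCaP. These values cannot show whether same-letter arrays were prepared together.

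Of 54675 probe sets, 41097 had 1 gene in the platform's annotation, 1801 had several and were not used, and 19775 genes were represented by their probe set of highest mean. A gene was tested in a line where it exceeded the array median (50th percentile) in at least 3 of 12 arrays, leaving 12850 genes for VCaP, 12809 for LNCaP and 12293 for comparisons between lines. limma 3.58.1 (R 4.3.3) was fitted to log2(intensity + 16), once per line with 4 groups, and once to all 24 arrays for differences between lines (13 comparisons, two-sided). The script was tested on simulated data. The number of arrays limits the precision.

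The 8 members and the lists (other coactivators, other corepressors, other nuclear receptors, corticosteroid target genes, luminal prostate markers, markers of other cells) were chosen with earlier results of these data known. Named were all members, up to 2 risen and 2 fallen genes per list and comparison with the smallest adjusted p, ERG, ETV1, KLK3 and FKBP5, and the 2 genes most like each member; the text gives part of these. CTBP1-AS and CTBP1-DT were added later. Sequences are RefSeq's (GRCh38.p14). Alternatives changed the pseudocount, probe set choice, filter, scaling, variance model, weights, fit, block, covariate and arrays.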

Additional observations from a re-analysis of the deposited data

Results flagged for a closer look

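The DHT response of control cells differed between the lines, LNCaP minus VCaP, for CTBP1 (-1.45), NR3C1 (-1.01), NCOA1 (-0.31) and NR3C2 (-0.28), by limma's test of the difference itself. The knockdown effect in EtOH, shETV1 in LNCaP minus siERG in VCaP, differed for NR3C1 (-0.79), CTBP1 (0.34), NCOA2 (-0.23) and NCOA1 (0.21). With no filter CTBP1, NCOA2 and NCOA1 missed the threshold (limma adjusted p = 0.0807, 0.0795 and 0.0535). Their calls were lost in 12, 7 and 3 omissions of 1 array, in that order. The knockdown effect in DHT differed for NR3C1 (-0.75), NR3C2 (-0.48) and CTBP1 (0.41). Each of these CTBP1 differences turned sign without _x_at and _s_at probe sets. NR3C1 entered the LNCaP test through its shControl EtOH arrays, which favoured its differences in DHT response and in the EtOH knockdown effect. With no filter both still passed (limma adjusted p = 9.92e-07 and 0.000205). All LNCaP DHT arrays of NR3C1 lay below the array median. The lines differ in the gene targeted and in the RNA interference used, and these cannot be told apart from the line.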

How the results depend on the processing

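Each member's change was recomputed under 14 other settings and 24 omissions of 1 array. Only a value reported as called could count as reversed. Under other settings, 953 values kept their side of the threshold without such a reversal, 25 lost the call, 18 gained it and 6 reversed. With 1 array left out, 1109 kept their side, 38 lost the call, 5 gained it and 0 reversed. Values that were not called could turn their sign and still count as kept. CTBP1 with siERG in DHT ran from -0.0973 to 0.0208 over left-out arrays. The VCaP interaction of NCOA2 ran from -0.152 to 0.127 over other settings. All 6 reversals of a called value were CTBP1 without _x_at and _s_at probe sets, a setting that leaves only probe set 1557714_at. They were 0.76 with DHT in shControl and 0.99 in shETV1 cells, and -0.0219 for shETV1 in DHT. Between lines they were 0.60 for the DHT response, -0.32 for the knockdown effect in EtOH and -0.0732 in DHT. That setting also gave 0 members changed with siERG in EtOH and 1 in DHT, and 0 with shETV1 in EtOH and 0 in DHT. It gave 2 and 1 for the knockdown differences between lines in EtOH and DHT. NR3C1 was not tested in LNCaP under it.

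For siERG in EtOH (2 members), 1 changed with no filter, 1 in a fit of all 24 arrays, 1 with the replicate block, 0 with the GAPDH covariate, and 1 to 2 with 1 array left out. For siERG in DHT (2), 1 changed in a fit of only the groups compared, 1 with the GAPDH covariate, and 1 to 2 with 1 array left out. For DHT in siERG cells (2), 1 changed with no filter, a trended and robust variance, only the groups compared, all 24 arrays or the GAPDH covariate, and 1 to 2 with 1 array left out. The VCaP interaction (0) gave 1 with the 60th percentile filter, quantile normalization or array weights. For shETV1 in EtOH (1), 0 changed with the mean of all probe sets and 0 with the 60th percentile filter. Neither of these 2 settings tested NR3C1 in LNCaP, so its call was not put to a test there. Tested with no filter, NR3C1 kept this call (limma adjusted p = 0.0124). With a trended and robust variance or array weights 2 changed. For shETV1 in DHT (2), 1 changed with the 60th percentile filter or a trended and robust variance, and 1 to 2 with 1 array left out. For the knockdown difference between lines in EtOH (4), 1 differed with the mean of all probe sets, no filter or the GAPDH covariate, 2 with the replicate block, and 1 to 4 with 1 array left out. The replicate block took the siERG call of NR3C1 in EtOH (limma adjusted p = 0.0579) and the line-difference calls of NCOA2 (0.0621) and CTBP1 (0.0584), and no other call. The causes were not tested. Alternatives were not run for CTBP1-AS or CTBP1-DT. Dim signal limits NR3C1 in LNCaP.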
